A study of Homo sapiens with 8 samples.

Results

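The genes described here are 44 genes of DNA replication and S phase, the part of the cell cycle in which the genome is copied. They were chosen by name, from lists of replication licensing factors, replication fork proteins, enzymes of nucleotide supply, E-type cyclins and proteins that follow the fork in chromatin. Of the 60725 genes listed in the count table they are 44, and all 44 had enough reads to be tested. RNA-seq measured polyadenylated RNA of HAP1, a near-haploid human cell line, after CRISPR interference against a subunit of the negative elongation factor NELF, which holds RNA polymerase II in a paused state shortly after it starts transcription.

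All 8 libraries came from the same clone, SC9, which stably expressed a catalytically inactive Cas9 joined to the KRAB repressor domain, and all had received a lentiviral guide RNA and puromycin selection. The 3 control libraries carried a guide RNA against ADAM22, the 3 NELFE knockdown libraries one against NELFE, and the 2 NELFB knockdown libraries one against NELFB, and RNA was taken from all of them 144 h after transduction. Because a single clone was used, differences between clones could not be observed, and a p-value measures only the spread between these libraries. The control cells were also a CRISPR interference line, so no library shows HAP1 without the repressor.

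The library totals ran from 22037423 to 24444185 reads counted on genes, and the members were well counted, with 332 reads as the lowest count of any member in any library. Values are given below as CPM, counts scaled to a common library size after TMM normalization. As a check of the labels, the targets of both NELF guide RNAs were read first. NELFE stood at 50.5, 49.4 and 48.1 CPM in control, at 2.41, 2.37 and 2.98 CPM in the NELFE knockdown and at 61.2 and 56.9 CPM in the NELFB knockdown. NELFB stood at 74.4, 72.7 and 79.1 CPM in control, at 63.4, 63.9 and 64.0 CPM in the NELFE knockdown and at 3.07 and 2.78 CPM in the NELFB knockdown. Each target was thus lowest in the libraries labelled with it, and NELFB was also called lower in the NELFE knockdown, with a log2 fold change of -0.24 ± 0.07 and an adjusted p of 0.0481 in edgeR. Of the markers examined for the cell line, VIM, KRT18, KRT8 and ABL1 were detected, at a mean of 394, 28.9, 3.49 and 20.6 CPM in control. The blood lineage markers PTPRC, SPI1, HBG1, MPO and CD33 had at most 5 reads in any library, and CD34 had at most 67. ABL1, KRT8, KRT18 and CD34 were called higher in the combined comparison described below, with every knockdown library above every control library. ABL1 stood at 18.3, 24.2 and 19.3 CPM in control, at 45.2, 42.2 and 28.3 CPM in the NELFE knockdown and at 51.1 and 45.5 CPM in the NELFB knockdown. For KRT8 and KRT18 the log2 fold changes were 1.65 and 0.56 (adjusted p = 0.00913 and 0.0174, edgeR). CD34, near the limit of detection in control at 0.120, 0.133 and 0.0438 CPM, stood at 0.665, 0.258 and 1.30 CPM in the NELFE knockdown and at 2.78 and 0.897 CPM in the NELFB knockdown (adjusted p = 0.0142, edgeR). The part of these changes in the results was not tested.

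Replication begins with licensing in G1, when the origin recognition complex, CDC6 and CDT1 load the MCM helicase onto DNA as an inactive ring. At the start of S phase CDC45 and the GINS complex join the ring and turn it into a working helicase, and polymerases alpha, delta and epsilon then copy the opened strands, aided by the PCNA clamp, its RFC loader and the single-strand binding protein RPA. Many of these genes are transcribed together at the transition from G1 to S under E2F transcription factors, so that a growing culture holds their mRNA mainly in late G1 and S.

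To show the sequence from which the members are transcribed, RefSeq promoter windows (GRCh38.p14, 250 bases before the start and 50 after it) were found for 37 members. Entries were not found for MCM4, MCM5, GINS4, POLD3, RPA2, RPA3 and CCNE2. The windows were searched on both strands for the letters TTTCCCGC, TTTCGCGC, TTTGCCGC and TTTGGCGC, which spell forms of the E2F site. The stretches below show upstream matches in capitals, first in members whose RNA fell in the knockdowns and then, from TYMS on, in members that did not pass the test. They are written 5′ to 3′ on the strand of the gene, and the PRIM1 stretch, which holds none of the E2F letters, has CCAAT in capitals. In MCM6 the capitals cover 2 overlapping matches.
MCM6, chr2:135876502-135876549, minus strand: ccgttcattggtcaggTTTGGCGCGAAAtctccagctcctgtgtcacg
CDT1, chr16:88803734-88803781, plus strand: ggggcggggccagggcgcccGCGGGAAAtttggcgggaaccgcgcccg
MCM3, chr6:52284889-52284936, minus strand: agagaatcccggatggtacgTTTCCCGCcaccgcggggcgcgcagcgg
GINS2, chr16:85688958-85689005, minus strand: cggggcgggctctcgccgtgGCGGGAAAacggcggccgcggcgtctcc
POLE, chr12:132687343-132687380, minus strand: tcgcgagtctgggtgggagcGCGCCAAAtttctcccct
UHRF1, chr19:4909467-4909500, plus strand: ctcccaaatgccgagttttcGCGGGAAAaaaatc
PRIM1, chr12:56752324-56752443, minus strand: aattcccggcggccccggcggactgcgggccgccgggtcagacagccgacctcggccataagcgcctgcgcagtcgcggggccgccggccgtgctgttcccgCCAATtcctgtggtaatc
TYMS, chr18:657594-657641, plus strand: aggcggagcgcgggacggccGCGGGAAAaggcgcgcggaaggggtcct
LIG1, chr19:48170431-48170478, minus strand: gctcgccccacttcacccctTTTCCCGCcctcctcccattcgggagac
RFC3, chr13:33818074-33818121, plus strand: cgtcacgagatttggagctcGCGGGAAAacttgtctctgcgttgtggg

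The E2F letters were found in 18 of the 37 members (48.6%), beside 1090 of 27305 genes with a window (3.99%). In the first window listed for each member there were 24 matches, of which 14 lay within 100 bases upstream of the start. CCAAT, the letters read by NF-Y, was found in 59.5% of the members and 39.7% of all genes, and GGGCGG, read by Sp1, in 75.7% and 48.3%. TTTGAA, the letters of the CHR element of late cell cycle genes, was found in 2.70% of the members, which is 1 gene, and in 18.2% of all genes. Among the members that fell in the combined comparison below the E2F letters were found in 11 of 22, and among those that did not pass its test in 7 of 15. CCAAT was found in 16 of 22 and 6 of 15, and GGGCGG in 18 of 22 and 10 of 15, and these shares were not tested against each other. A match is a run of letters and does not show that a factor was bound.

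In control cells the members covered a wide range of levels. Compared per exon length, as TPM, PCNA, the sliding clamp, was the most abundant at 845 ± 88.6 TPM (SD, n = 3), followed by the helicase subunits MCM3 at 509 ± 56.2 TPM and MCM7 at 504 ± 36.9 TPM, which did not differ beyond their spread. The least abundant were CCNE2, a cyclin E that activates CDK2, at 20.6 ± 4.38 TPM and GINS3, a GINS subunit, at 20.6 ± 3.51 TPM, again within their spread of each other. Of the 6 subunits of the MCM ring, which are present once each in the complex, MCM5 was the lowest at 122 ± 11.5 TPM and MCM4 the next at 267 ± 35.97 TPM. The places of MCM5 and MCM4 depend on the exon length used. MCM5 has 7268 annotated exon bases, and MCM2, MCM3, MCM6 and MCM7 have between 3645 and 4960. The mean control CPM of MCM5, at 217, was also the lowest of the 6. With 9852 annotated exon bases, MCM4 had the highest mean control CPM of any member, at 643. MCM2 and MCM6 lay together at 334 ± 14.0 and 340 ± 37.8 TPM.

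The libraries of a group were not alike in these genes. Control 3 was the highest control library for 38 of the 44 members and control 1 the lowest for 38. NELFE knockdown 3 was the highest NELFE library for all 44 members, the highest of the 5 knockdown libraries for 41, and above control 1 for 27. Summed over the members, the level in percent of the control mean was 89.4, 99.9 and 111 in control, 71.9, 73.6 and 94.997 in the NELFE knockdown, and 68.8 and 74.3 in the NELFB knockdown. The NELFE mean was therefore 80.2 ± 12.9% (SD, n = 3) and the NELFB mean 71.5 ± 3.87% (SD, n = 2), against a control SD of 10.6%. The group summaries of the NELFE knockdown thus join a pair of low libraries with another that lay inside the control range, and results are given below with and without control 3 and NELFE 3. Those libraries were picked after the levels of these members were seen. Calls gained without them are therefore a description and not further support.

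**Figure D1:**
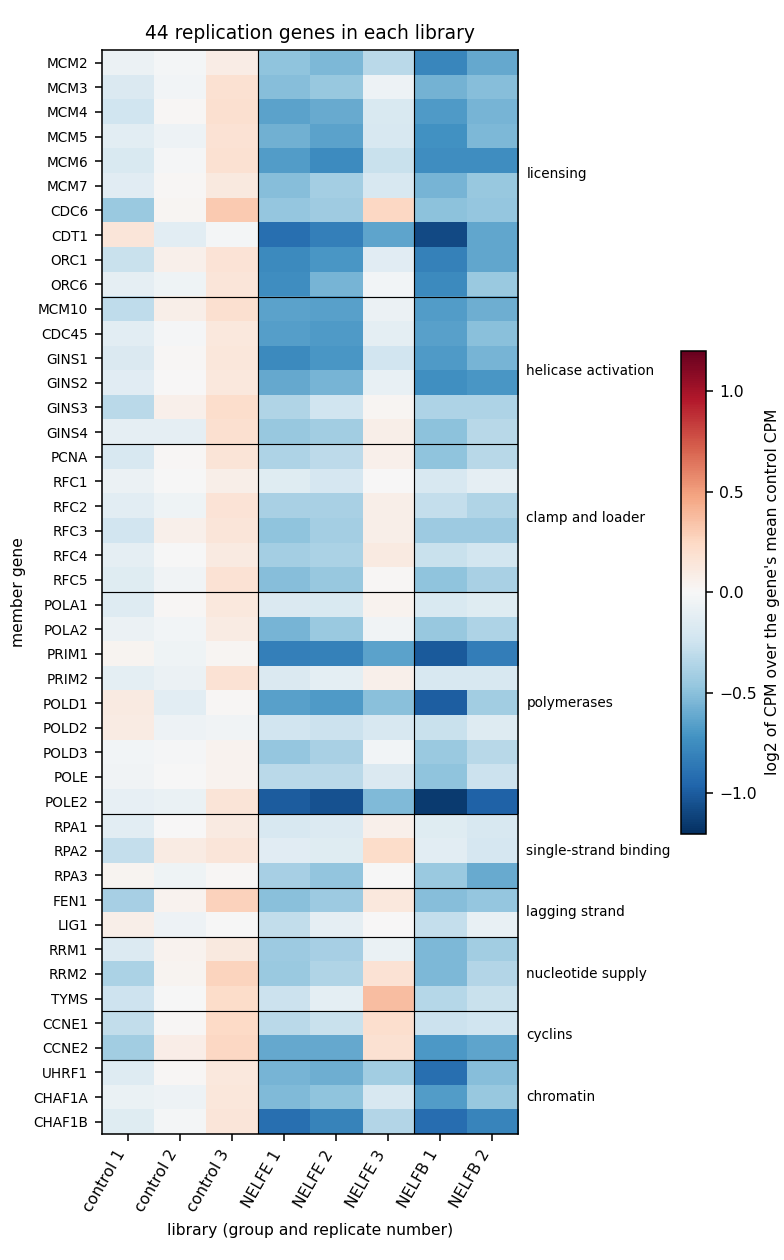
Heat map of the 44 members (rows, grouped by role) in the 8 libraries (columns), coloured by log2 of the CPM over the mean control CPM of the gene. NELFE 1, NELFE 2, NELFB 1 and NELFB 2 are mostly blue, with median values of -0.49, -0.44, -0.52 and -0.44, while NELFE 3 has a median of -0.04 and control 3 of 0.15.

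The first question was whether replication genes changed when NELF was depleted, with the 5 knockdown libraries set against the 3 control libraries. Of the 44 members 26 fell, none rose, and 18 did not pass the test at an adjusted p under 0.05 in edgeR's quasi-likelihood test, where 12.7% of the 16367 genes tested fell and 13.3% rose. Among the 7845 tested genes within the members' range of mean control CPM, 18.2% fell. The fitted fold change was below 0 for all 44 members, as it was for 50.3% of all genes, and the median over the members was -0.36 on the log2 scale against -0.00 over all genes. The decreases were moderate, since 7 of the 26 were more than 1.5-fold, a size and call shared by 3.09% of genes. In a bulk sample, fewer cells in S phase and less of these mRNAs per cell cannot be told apart.

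For 15 members every knockdown library was below every control library, as was the case for 14% of all genes tested. These were MCM2, MCM5, MCM6, MCM7, CDT1, GINS1, PRIM1, POLD1, POLD2, POLD3, POLE, POLE2, UHRF1, CHAF1A and CHAF1B, and all of them were among the 26. When control 3 and NELFE 3, picked from the levels of these members, were left out, 33 members fell, including all 26, beside 13.3% of genes. The 7 members gained were GINS4, PCNA, RFC2, RFC3, RFC4, FEN1 and CCNE2. When each of the 8 libraries was left out in turn, between 16 and 37 members fell, the fewest without control 3, where 8.91% of genes fell, and the most without NELFE 3, where 15.9% did. In each of those 8 fits 15 members fell, namely MCM2, MCM4, MCM5, MCM6, MCM7, CDT1, CDC45, GINS1, PRIM1, POLD1, POLE, POLE2, UHRF1, CHAF1A and CHAF1B. The share of all genes that fell in each of the 8 fits was not determined, so this number is a description only.

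Of the 10 licensing genes 9 fell, with a median of -0.52. Here, and beside each role below, 12.7% of all genes tested fell. CDT1, which brings the MCM ring to the origin, stood at 78.3, 64.8 and 69.6 CPM in control, at 37.9, 40.2 and 45.8 CPM in the NELFE knockdown and at 33.6 and 46.1 CPM in the NELFB knockdown. The highest knockdown library thus lay well below the lowest control library. CDT1 fell by 0.80 ± 0.11 (SE) on the log2 scale (adjusted p = 0.000563, edgeR), and here control 1 rather than control 3 was the highest control.

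MCM2, a subunit of the ring, stood at 367, 378 and 409 CPM in control, at 275, 265 and 307 CPM in the NELFE knockdown and at 224 and 252 CPM in the NELFB knockdown. The groups did not overlap, and both NELFB libraries were below all NELFE libraries. Its log2 fold change was -0.54 ± 0.09 (adjusted p = 0.00196, edgeR). MCM3 stood at 402, 445 and 515 CPM in control, at 318, 331 and 434 CPM in the NELFE knockdown and at 307 and 320 CPM in the NELFB knockdown. For MCM3 the groups overlapped, since NELFE 3 exceeded control 1, and the log2 fold change was -0.41 ± 0.12 (adjusted p = 0.0235, edgeR). The other ring subunits also fell, with log2 fold changes of -0.62 for MCM6, -0.52 for MCM5, -0.52 for MCM4 and -0.42 for MCM7, so that all 6 subunits were lower in the combined comparison.

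ORC1, the largest subunit of the origin recognition complex, and ORC6, its smallest, fell by 0.58 and 0.48 on the log2 scale. CDC6, which loads the ring with the origin recognition complex, was the exception among licensing genes. It stood at 109, 151 and 185 CPM in control, at 108, 111 and 177 CPM in the NELFE knockdown and at 106 and 108 CPM in the NELFB knockdown. The control libraries alone spanned 1.69-fold, the widest spread of any member, and 4 of the 5 knockdown libraries sat near or below control 1 while NELFE 3 sat near control 3. The log2 fold change was -0.28 ± 0.20 (adjusted p = 0.337, edgeR, and 0.0744 without control 3 and NELFE 3).

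**Figure D2:**
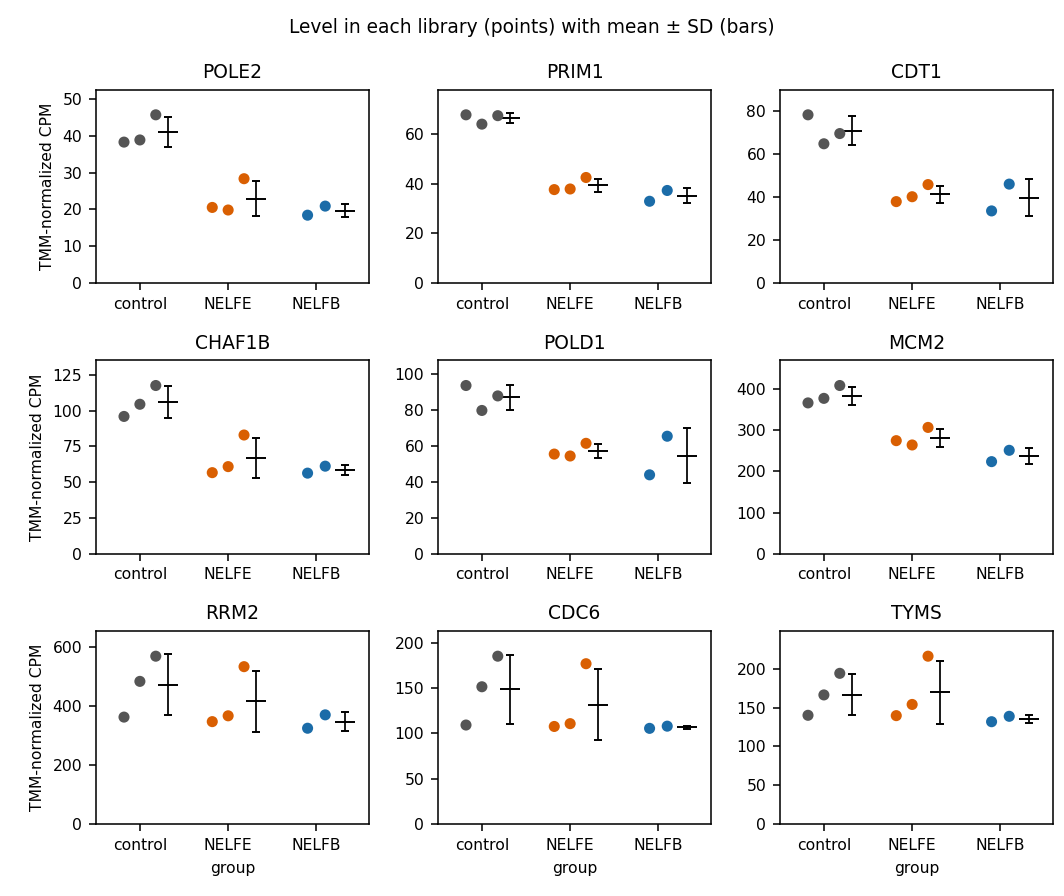
TMM-normalized CPM of 9 members in each library (points) with the group mean ± SD (bars) for control (n = 3), NELFE knockdown (n = 3) and NELFB knockdown (n = 2). For POLE2, PRIM1, CDT1, CHAF1B, POLD1 and MCM2 all knockdown points lie below all control points, whereas for RRM2, CDC6 and TYMS the third NELFE point lies among the control points or above them.

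Of the 6 factors that activate the helicase, 4 fell, with a median of -0.50 over the group. MCM10, which is needed for the loaded helicase to open DNA, and CDC45, the helicase cofactor, both had a log2 fold change of -0.50, with standard errors of 0.15 and 0.12. GINS1 fell by 0.57 and GINS2 by 0.52, while GINS4, at -0.31, did not pass the test (adjusted p = 0.0948, edgeR, and 0.0112 without control 3 and NELFE 3). GINS3, among the least abundant members, stood at 20.6, 26.95 and 29.8 CPM in control, at 20.03, 21.9 and 26.2 CPM in the NELFE knockdown and at 19.9 CPM in both NELFB libraries. Control 1 lay among its knockdown libraries, and its log2 fold change of -0.26 ± 0.13 did not pass the test (adjusted p = 0.167, edgeR).

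Of the 9 polymerase genes 7 fell, with a median of -0.32, and they included the 2 members with the largest decreases. POLE2, a subunit of the leading strand polymerase epsilon, stood at 38.3, 38.9 and 45.7 CPM in control, at 20.5, 19.8 and 28.3 CPM in the NELFE knockdown and at 18.4 and 20.9 CPM in the NELFB knockdown. All 5 knockdown libraries were below the lowest control, and NELFE 3 was again the highest of them. POLE2 fell by 0.92 ± 0.13 on the log2 scale, or 47.2% (adjusted p = 0.000677, edgeR), the largest decrease of any member.

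PRIM1, the catalytic subunit of the primase that lays the RNA primer, stood at 67.8, 64.0 and 67.5 CPM in control, at 37.6, 37.9 and 42.5 CPM in the NELFE knockdown and at 32.9 and 37.3 CPM in the NELFB knockdown. Its controls agreed within 1.06-fold, its groups were far apart, and it fell by 0.82 ± 0.08 (adjusted p = 0.000111, edgeR). PRIM2, the other primase subunit, did not pass the test, at -0.12 ± 0.09 (adjusted p = 0.370, edgeR). The same held for POLA1, the catalytic subunit of polymerase alpha that extends the primer, at -0.12 ± 0.08 (adjusted p = 0.269, edgeR), whereas its partner POLA2 fell by 0.36. Differences in fold change between members were not tested.

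POLD1, the catalytic subunit of the lagging strand polymerase delta, stood at 93.5, 79.6 and 87.7 CPM in control, at 55.3, 54.3 and 61.3 CPM in the NELFE knockdown and at 43.8 and 65.3 CPM in the NELFB knockdown. The NELFB libraries were the lowest and the highest of the 5, yet both were below every control. POLD1 fell by 0.63 ± 0.11 (adjusted p = 0.00231, edgeR). The accessory subunits POLD2 and POLD3 fell by 0.22 and 0.32, and POLE, the catalytic subunit of polymerase epsilon, by 0.31, with no overlap between the knockdown and control libraries in any of these genes.

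Of the 6 genes of the clamp and its loader 1 fell (16.7%), with a median of -0.27. That share was near the 12.7% of all genes tested and the 18.2% of genes within the members' range of mean control CPM. PCNA stood at 254, 292 and 323 CPM in control, at 224, 232 and 302 CPM in the NELFE knockdown and at 207 and 229 CPM in the NELFB knockdown. Apart from NELFE 3, the knockdown libraries were below all controls, and the log2 fold change was -0.28 ± 0.12 (adjusted p = 0.0994, edgeR). Without control 3 and NELFE 3 it was -0.30 (adjusted p = 0.0159, edgeR), and 5 of the 6 genes of the group fell, beside 13.3% of all genes. Those libraries were picked from the levels of these same members, so the added calls are a description only. Of the 5 subunits of the loader, which opens the clamp around DNA, RFC5 fell by 0.35 with an adjusted p of 0.0488 in edgeR, close to the threshold. RFC1, RFC2, RFC3 and RFC4 had log2 fold changes between -0.32 and -0.13 and did not pass the test, and RFC1 did not pass it without control 3 and NELFE 3 either.

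Of the RPA subunits, which coat single-stranded DNA, RPA3 fell by 0.37, while RPA1, at -0.12, and RPA2, at -0.07, did not pass the test. FEN1, the nuclease that trims Okazaki fragments, and LIG1, the ligase that joins them, did not pass the test, at -0.33 ± 0.17 and -0.15 ± 0.08 (adjusted p = 0.178 and 0.194, edgeR). FEN1 passed it without control 3 and NELFE 3, at -0.33 (adjusted p = 0.0335, edgeR), and LIG1 did not.

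Among the enzymes of nucleotide supply RRM1, the large subunit of ribonucleotide reductase, fell by 0.36 ± 0.10 (adjusted p = 0.0219, edgeR). RRM2, the small subunit of the same enzyme, stood at 363, 484 and 570 CPM in control, at 348, 368 and 534 CPM in the NELFE knockdown and at 326 and 371 CPM in the NELFB knockdown. The groups overlapped widely, with control 1 as low as the knockdown libraries and NELFE 3 above 2 of the controls. The log2 fold change of RRM2 was -0.28 ± 0.17 (adjusted p = 0.261, edgeR, and 0.0782 without control 3 and NELFE 3).

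TYMS, the thymidylate synthase, stood at 140, 166 and 194 CPM in control, at 140, 154 and 216 CPM in the NELFE knockdown and at 132 and 139 CPM in the NELFB knockdown. NELFE 3 was the highest of all 8 libraries, and both NELFB libraries were just below control 1. The log2 fold change was -0.09 ± 0.16 (adjusted p = 0.701, edgeR). In GENCODE v44 47.9% of the exon bases of TYMS also belong to exons of other genes, ENOSF1 and TYMSOS. The same was true of 37.1% of the exon bases of CCNE2, 23.6% of MCM2, 23.4% of GINS4, 21.3% of POLA2, 19.1% of PRIM1, 10.9% of GINS3 and 10.7% of RFC5. Without strand, a read in such a stretch cannot be given to a single gene, and only reads that overlapped 1 gene were counted. The counts were made with Gencode v24, where the overlaps may differ. The counts of these members are therefore less certain than those of the others.

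The E-type cyclins, which switch on CDK2 at the entry to S phase, did not pass the test with all 8 libraries. CCNE1 stood at 21.4, 26.4 and 30.9 CPM in control, at 20.9, 21.8 and 30.1 CPM in the NELFE knockdown and at 21.9 and 22.3 CPM in the NELFB knockdown, and its fitted log2 change was -0.16 ± 0.14 (adjusted p = 0.419, edgeR). CCNE2 stood at 16.6, 23.4 and 26.4 CPM in control, at 14.4, 14.5 and 25.1 CPM in the NELFE knockdown and at 13.8 and 14.3 CPM in the NELFB knockdown, and its fitted log2 change was -0.43 ± 0.21 (adjusted p = 0.156, edgeR). For CCNE2 every knockdown library but NELFE 3 was below the controls, whereas for CCNE1 control 1 was level with most of the knockdown libraries. Without control 3 and NELFE 3, CCNE2 fell by 0.50 (adjusted p = 0.0158, edgeR) and CCNE1 did not pass the test.

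All 3 chromatin genes fell, with a median of -0.59. CHAF1B, a subunit of the chromatin assembly factor that places histones on new DNA, stood at 95.96, 104 and 118 CPM in control, at 56.6, 60.9 and 83.0 CPM in the NELFE knockdown and at 56.3 and 61.2 CPM in the NELFB knockdown. Even NELFE 3 was below the lowest control, and CHAF1B fell by 0.74 ± 0.12 (adjusted p = 0.00169, edgeR). CHAF1A, the largest subunit of that factor, fell by 0.46, and UHRF1, which brings the maintenance methyltransferase DNMT1 to newly copied DNA, by 0.59.

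The spread between controls enters the standard error of each test, so it is given here as a description of the members. The ratio of the highest to the lowest control CPM exceeded 1.4 for 7 members, CDC6, FEN1, CCNE2, RRM2, GINS3, CCNE1 and MCM10, and of these MCM10 alone fell. Of the other 37 members 25 fell. The median ratio was 1.19 for the members that fell and 1.29 for those that did not pass the test. Not all of the latter had unequal controls, since RFC1 and LIG1 had close controls and log2 fold changes of -0.13 and -0.15.

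**Figure D3:**
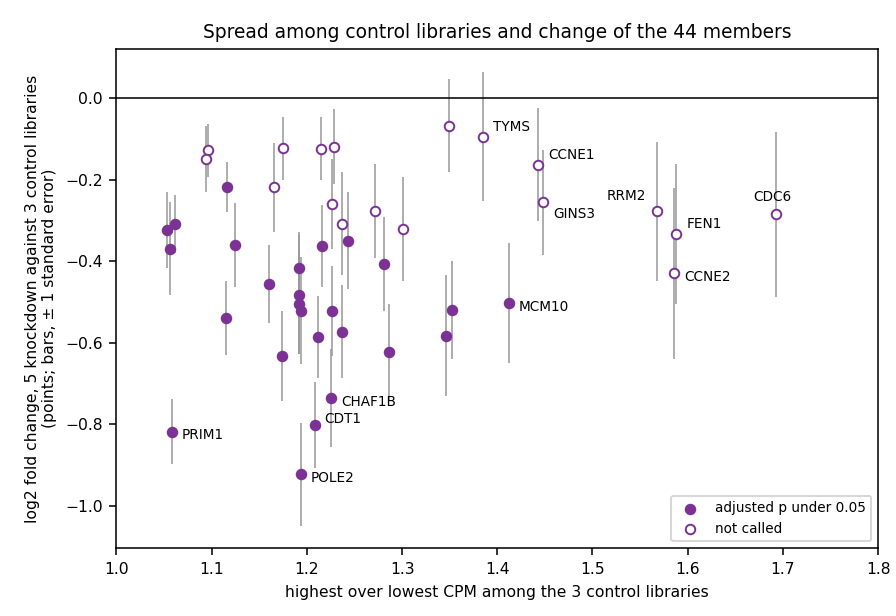
Log2 fold change of each member in the 5 knockdown against the 3 control libraries (vertical axis, bars ± 1 standard error) against the ratio of its highest to its lowest control CPM (horizontal axis). Filled points had an adjusted p under 0.05 in edgeR, and to the right of a ratio of 1.4 the only filled point is MCM10.

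Each knockdown was next compared with the control on its own, in a model of the 3 groups. In the NELFE knockdown 14 members fell and none rose, beside 7.04% of 16852 genes that fell and 7.92% that rose. The median log2 fold change of the members was -0.30, and 43 of 44 were below 0, the exception being TYMS at 0.03 ± 0.16. All 3 NELFE libraries were below all controls for 15 members and 16.3% of genes. In the NELFB knockdown 23 members fell and none rose, beside 8.88% of genes that fell and 10.6% that rose. Their median was -0.48 and all 44 were below 0. Both NELFB libraries were below all controls for 40 members and 24.9% of genes.

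The comparisons share their control libraries, so their overlap is given as a count only. In both knockdowns 14 members and 5.48% of all genes fell, the members being MCM2, MCM4, MCM5, MCM6, MCM7, CDT1, GINS1, PRIM1, POLD1, POLE, POLE2, UHRF1, CHAF1A and CHAF1B. A further 9 passed the test in the NELFB and not in the NELFE knockdown, beside 3.40% of genes, and these were MCM3, ORC1, ORC6, MCM10, CDC45, GINS2, POLD3, RPA3 and RRM1. RFC5, POLA2 and POLD2 passed it only with the knockdowns combined, beside 3.16% of genes. POLE2 fell to a log2 value of -0.84 ± 0.14 in the NELFE and -1.06 ± 0.16 in the NELFB knockdown (adjusted p = 0.00494 and 0.00222, edgeR). The values for PRIM1 were -0.76 ± 0.08 and -0.92 ± 0.10, and those for CDT1 -0.78 ± 0.13 and -0.83 ± 0.14.

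**Figure D4:**
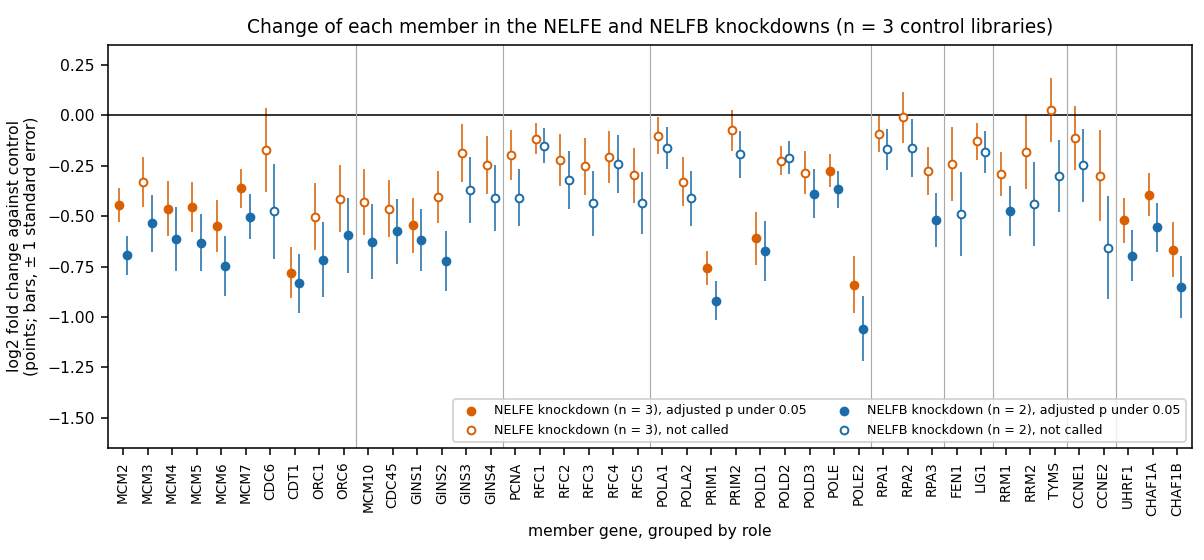
Log2 fold change (± 1 standard error) of the 44 members in the NELFE (n = 3) and the NELFB (n = 2) knockdown against the same 3 control libraries, grouped by role, with filled points for an adjusted p under 0.05 in edgeR. Filled points number 14 for NELFE and 23 for NELFB, and the lowest pair is POLE2.

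These counts moved with single libraries. Without NELFE 3 the number of members that fell in the NELFE knockdown was 31 and their median -0.46, beside 8.94% of genes that fell, and without control 3 and NELFE 3 it was 29, beside 8.77% of genes. Without NELFE 2 it was 4, which were MCM2, CDT1, PRIM1 and POLE2, and the share of all genes was also lower, at 2.69%. In the NELFB knockdown the number was 3 when NELFB 1 was left out, which were MCM2, PRIM1 and POLE2, beside 1.27% of genes, and 9 when NELFB 2 was left out, beside 2.81%. In these fits the NELFB knockdown was 1 library, assumed to vary like the libraries of the other groups. With control 3 and NELFE 3 left out, 29 members fell in the NELFB knockdown, beside 11.4% of genes. With only NELFE 3 left out, 31 fell in the NELFB knockdown, beside 11.5% of genes. With the replicate number as a block and all 8 libraries, 32 members fell in the NELFE and 31 in the NELFB knockdown. The shares of all genes were then 14.0% and 13.7%.

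The difference between the knockdowns was tested directly. No member passed the test in edgeR, where 0.315% of genes did (0.0771% lower and 0.237% higher in the NELFE knockdown), and the smallest adjusted p was 0.888. At an unadjusted p under 0.05 there was 1 member, MCM2, higher in the NELFE knockdown by 0.25 on the log2 scale (95% interval 0.04 to 0.46). DESeq2 also called no member. The fitted value was higher in the NELFE knockdown for 43 of 44 members, with a median difference of 0.16. Without NELFE 3 that median was 0.01, and without control 3 and NELFE 3 it was 0.02. The 95% intervals of the single members reached from -0.29 at the lowest bound to 0.92 at the highest.

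The surrounding genes of the pathway were read from 5 lists, together 80 genes, of which 79 were tested and ATRIP was not. Of these 38 fell and 2 rose, with a median of -0.31. Beside every count in this paragraph stand 12.7% of all genes tested that fell and 13.3% that rose. Among 33 other replication genes 19 fell and 1 rose, among 10 of nucleotide supply 4 fell, among 18 of the E2F and RB network 7 fell and 1 rose, among 8 of the S-phase checkpoint 2 fell, and among 10 of chromatin replication 6 fell. A further list, of 20 genes of G2 and mitosis, read as a reference for the rest of the cell cycle, had 12 that fell and a median of -0.32. Decreases were thus found outside the S-phase genes too, and the lists were not tested against each other.

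**Figure D5:**
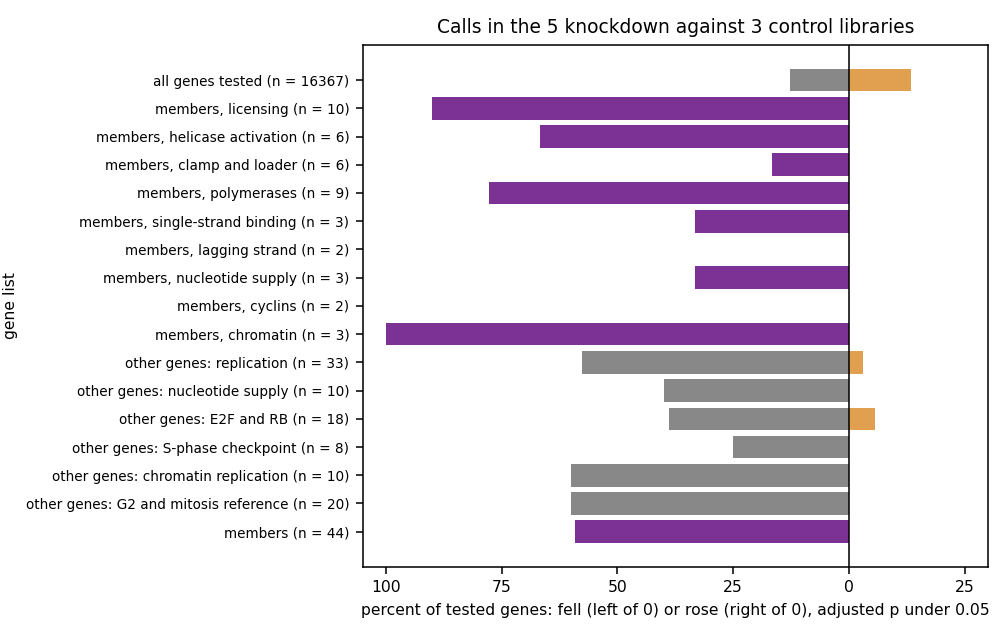
Percent of the tested genes of each list that fell (left of 0) or rose (right of 0) at an adjusted p under 0.05 in edgeR, in the 5 knockdown against the 3 control libraries, for the members in all and by role, other genes of the pathway, and all genes tested. The bar of all genes reaches 12.7% to the left and 13.3% to the right, and of the member bars none reaches to the right.

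The largest decreases on these 6 lists were those of E2F2, an activator of the G1/S genes, with a log2 fold change of -0.80 ± 0.12, CDC20, the mitotic activator of the anaphase-promoting complex, with -0.75 ± 0.11, and AURKB, the kinase of chromosome segregation, with -0.71 ± 0.09 (adjusted p = 0.000991, 0.000763 and 0.000563, edgeR). The 2 increases were TFDP2, a dimer partner of the E2F factors, at 0.45 ± 0.14, and RNASEH2C, a subunit of the ribonuclease that removes RNA from DNA, at 0.31 ± 0.09 (adjusted p = 0.0400 and 0.0216, edgeR).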

How the data were processed

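The authors aligned single-end reads of 65 bases to GRCh38 with STAR (2.5.4a, after FastQC 0.11.6, per the submitters' processing notes) and deposited raw counts per gene of Gencode v24, each column a library, without strand and without normalization or filtering. Counts are of uniquely aligned reads that overlap 1 gene, carry no molecular identifiers, and sum to between 22037423 and 24444185 per library. GENCODE v44 supplied symbols, exon lengths and gene overlaps through the Ensembl identifiers, matching 97.4% of genes with reads and 99.9% of counts.

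Libraries were grouped by their labels. The whole table was fitted by the robust quasi-likelihood method of edgeR 4.0.16 (R 4.3.3) after filterByExpr and TMM, with Benjamini-Hochberg adjustment over all genes tested and a threshold of 0.05. The combined comparison set 5 knockdown against 3 control libraries, while the single knockdowns, and the difference between them, came from a model in which each group had its own term. TPM used exon lengths of all annotated exons. The alternatives were DESeq2 1.42.0, its size factors, other filters, a prior count of 2, protein-coding genes only, other models, the replicate number as a block and each library left out. Leaving out control 3 and NELFE 3 together was added after the data were seen. On simulated libraries, 82% of log2 changes of 0.5 were recovered in the combined comparison (16281 genes), 65% in the NELFE and 48% in the NELFB comparison (16549 genes each). Each simulated gene varied on its own, changes were placed in well-counted genes, and both knockdowns had the same change. Shifts shared by the members, as in NELFE 3, were therefore not simulated. No 2 libraries of the same group were copies of each other.

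The members and gene lists were chosen with earlier results of these data known. Values in every library are given for the 5 largest called decreases in the combined comparison (no member was called higher), the 2 most and 2 least abundant members, and PCNA, MCM2, CCNE1, CCNE2, RRM2, TYMS and CDC6. From the other lists the 3 largest called decreases and the called increases are named.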

Additional observations from a re-analysis of the deposited data

How the results depend on the processing

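Read depth was high for all members, and there were 3 control, 3 NELFE and 2 NELFB libraries. No member was called higher in any comparison with control under any alternative run. The number called lower in the NELFE knockdown was 24 with no filter on low counts (4.61% of all genes), 9 with only the libraries compared in the fit (5.08%), and 29 without control 3 and NELFE 3 (8.77%). With each library left out in turn it lay between 16 and 37 in the combined comparison, between 4 and 31 in the NELFE knockdown and between 3 and 31 in the NELFB knockdown, the 3 coming from a fit with 1 NELFB library, assumed to vary like the other groups. The median log2 fold change in the NELFE knockdown lay between -0.46 and -0.23 in those fits, and the median difference between the knockdowns between 0.014 and 0.23. That difference was 0.022 without control 3 and NELFE 3. The cause of these shifts was not tested, and leaving a library out changed both the number of libraries and which of them remained. DESeq2 and its size factors in edgeR changed none of the 44 calls of the combined comparison, while DESeq2 added 4 calls in the NELFE and 5 in the NELFB comparison. It thus called 18 and 28 members lower, beside 8.46% and 10.5% of all genes.

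Deviations from the group mean of libraries with the same replicate number were correlated at 0.27, 0.05 and 0.45 between control and NELFE (across genes, which are not independent). With NELFE libraries of other numbers, control 1 had 0.23 and -0.38, control 2 -0.04 and -0.01, and control 3 -0.29 and -0.31. The same-number value was thus the highest for each control. Same-number values were -0.02 and -0.01 between control and NELFB, and 0.10 and 0.20 between NELFE and NELFB. The labels do not say that a number marks a shared batch, so the libraries were treated as unpaired. Whether the numbers pair them was not settled. With the replicate block, 33 members were lower in the combined comparison, 32 in the NELFE and 31 in the NELFB knockdown, beside 17.3%, 14.0% and 13.7% of all genes, and none differed between the knockdowns, with a median difference of 0.04.

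A change of sign was seen only in members that did not pass the test. In the NELFE knockdown RPA2 was at 0.000569 with at least 10 reads in every library, and between -0.14 and 0.068 with each library left out. In the same fits TYMS lay between -0.18 and 0.15, CDC6 between -0.44 and 0.015, PRIM2 between -0.15 and 0.022 and CCNE1 between -0.30 and 0.021. In the combined comparison RPA2 lay between -0.19 and 0.0094 and TYMS between -0.25 and 0.027. Without control 3 and NELFE 3, TYMS in the NELFE knockdown was at -0.064.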
